A study of Mus musculus with 2 samples.

Results

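The genes that make, break down, carry and sense prostaglandins were followed in mouse dorsal skin through 10 members: the cyclooxygenases Ptgs1 and Ptgs2, the synthases Ptgds, Hpgds and Ptges, the breakdown enzyme Hpgd, the transporter Slco2a1 and the receptors Ptger3, Ptger4 and Ptgfr. They were chosen by gene symbol from the 32285 genes of the count tables, and all 10 were present. The tissue was whole dorsal skin of male C3H/HeN mice, 9 weeks old at harvest, measured by single-cell RNA sequencing in 2 libraries. In the paper the backs of the mice of all groups were shaved at 7 weeks of age. The control library came from vehicle-treated mice. The TP library came from the androgenetic alopecia (AGA) model, in which mice were injected under the skin with testosterone propionate (TP), an ester of testosterone, at 0.5 mg per day. Each library was a digest of skin pooled from 15 mice, with no sorting for a cell type, and another arm that also received an antibody was not analysed here. With 1 library per group no test was possible: ratios are TP over control, every interval is an exact 95% interval that covers counting error only, and the treatment cannot be told apart from any other difference between the pools.

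Prostaglandins are short-lived lipid signals. Phospholipases free arachidonic acid from membranes, a cyclooxygenase turns it into prostaglandin H2, and a terminal synthase turns that into prostaglandin D2, E2, F2alpha or prostacyclin, which act on G protein-coupled receptors until they are taken up by a transporter and oxidised. In hair biology prostaglandin D2 is known as an inhibitor of hair growth that is raised in bald human scalp, whereas analogues of prostaglandin F2alpha lengthen eyelashes and prostaglandin E2 is mostly linked to growth and wound repair.

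After filtering, 39076 control cells with 108868686 transcripts (unique molecular identifiers, UMIs) and 18542 TP cells with 138947049 UMIs remained, with medians of 2069 and 5103 UMIs per cell. In the TP library 22.6% of barcodes exceeded the mitochondrial limit, against 7.58% in the control library, and 303 barcode sequences occurred in both libraries. Marker genes named 20 cell classes, called "-like" here, of which 18 had at least 30 cells in both libraries, while 31.5% of control and 13.1% of TP cells stayed unnamed. The skin labels were borne out by keratinocyte, follicle, fibroblast, pigment, vascular and immune classes. The classes held different shares of the 2 libraries. Suprabasal-like cells of the interfollicular epidermis (IFE) made up 9.60% of control and 26.37% of TP cells, IFE basal-like cells 7.53% and 16.9%, and dermal fibroblast-like (DF-like) cells 0.271% and 2.41%. Hair matrix-like cells (9.79% and 2.71%) and inner root sheath-like (IRS-like) cells (14.3% and 6.31%) went the other way. Dermal papilla cell-like (DPC-like) cells were at 9.17% and 8.07%. Levels are given as CPM, the gene's UMIs divided by all UMIs of the cells summed, and are compared between classes and libraries for 1 gene at a time.

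Summed over all kept cells, 5 of the 10 members differed by 2-fold or more towards TP and 2 towards control. By TMM, another scaling of the libraries, the members came to 5 and 1. Among all 19583 genes with enough UMIs, 8.42% were as much higher and 12.5% as much lower, 21.0% in either direction (1649 and 2456 genes, and 2285 and 1490 by TMM), and the median gene was at a log2 ratio of -0.25, and the TMM factor between the libraries was 0.837, by which every ratio over all cells would be divided under that scaling. Ptgs2 was furthest apart, at 1.148 CPM in control and 11.01 CPM in TP (ratio 9.59, interval 7.99 to 11.6). Hpgd followed, at 5.603 and 29.98 CPM (5.35, 4.91 to 5.83). Ptges was at 9.79 and 31.8 CPM (3.25, 3.04 to 3.48), and Ptgs1 at 73.4 and 233 CPM (3.17, 3.09 to 3.25). The D2 synthases moved apart from each other: Hpgds was at 19.6 and 40.2 CPM (2.05, 1.95 to 2.16), just past 2-fold, whereas Ptgds was at 99.9 and 63.4 CPM (0.63, 0.62 to 0.65). Both prostaglandin E2 receptors among the members were lower in TP. Ptger3 was at 30.8 and 11.9 CPM (0.39, 0.36 to 0.41) and Ptger4 at 34.0 and 14.3 CPM (0.42, 0.40 to 0.44), which by TMM came to 0.462 and 0.502, so that Ptger4 was no longer past 2-fold. Slco2a1 was at 17.8 and 26.7 CPM (ratio 1.5, 1.42 to 1.59). For Ptgfr, at 6.03 and 6.51 CPM, the ratio of 1.08 had an interval from 0.98 to 1.20, and came to 0.969 with a mitochondrial limit of 5%.

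Much of this followed the class shares. When the classes of both libraries were given the shares of UMIs they held in the control library, only 2 members, Ptgs2 (6.05) and Ptges (2.04), stayed at least 2-fold higher and only Ptger4 (0.49) stayed at least 2-fold lower. All unnamed cells counted as a single class in this, so shifts between clusters inside it stayed in the values. This includes the large unnamed cluster described with Ptger4, of 3954 control and 224 TP cells. Ptgs1 came to 1.80, Hpgd to 1.77, Hpgds to 1.16 and Ptgfr to 1.31. Ptger3 came to 0.58 and Ptgds to 0.94, and Slco2a1 changed sides, from 1.5 to 0.92. At the class shares of the TP library instead, Ptgs2 alone of the members passed 2-fold (5.66), with Ptges at 1.98 and Ptger4 at 0.541. The values within classes are therefore the ones given in detail. Of 97 combinations of a member and a class with at least 20 UMIs, 22 had 2-fold or more in TP over control and 21 the reverse, against 5.12% and 8.37% of all gene and class combinations. By TMM these became 29 and 17. The TMM factors of the classes compared lay between 0.736 and 0.962, which raises the ratio of every gene there. The shares of all gene and class combinations by TMM are not given. Of the 21 lower ones, 9 were Ptgds outside the melanocytes, which are described with that gene.

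**Figure D1:**
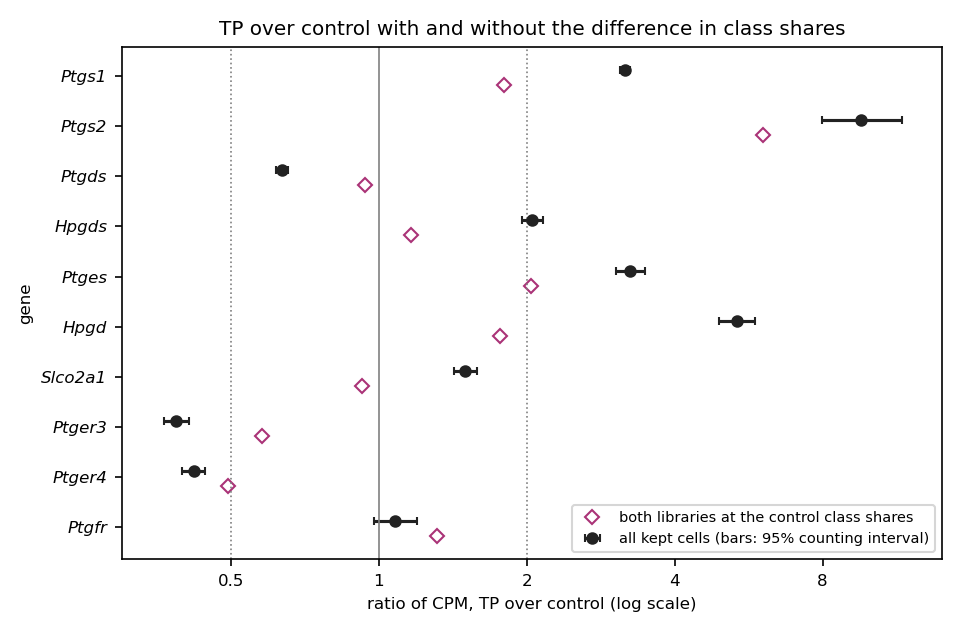
Ratio of CPM, TP over control, for each of the 10 genes on a log axis; filled points are all kept cells with 95% counting intervals and open diamonds give both libraries the control class shares, with dotted lines at 2-fold. Ptgs2 lies furthest to the right in both versions (9.59 and 6.05), and Slco2a1 crosses from 1.5 to 0.92.

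**Figure D2:**
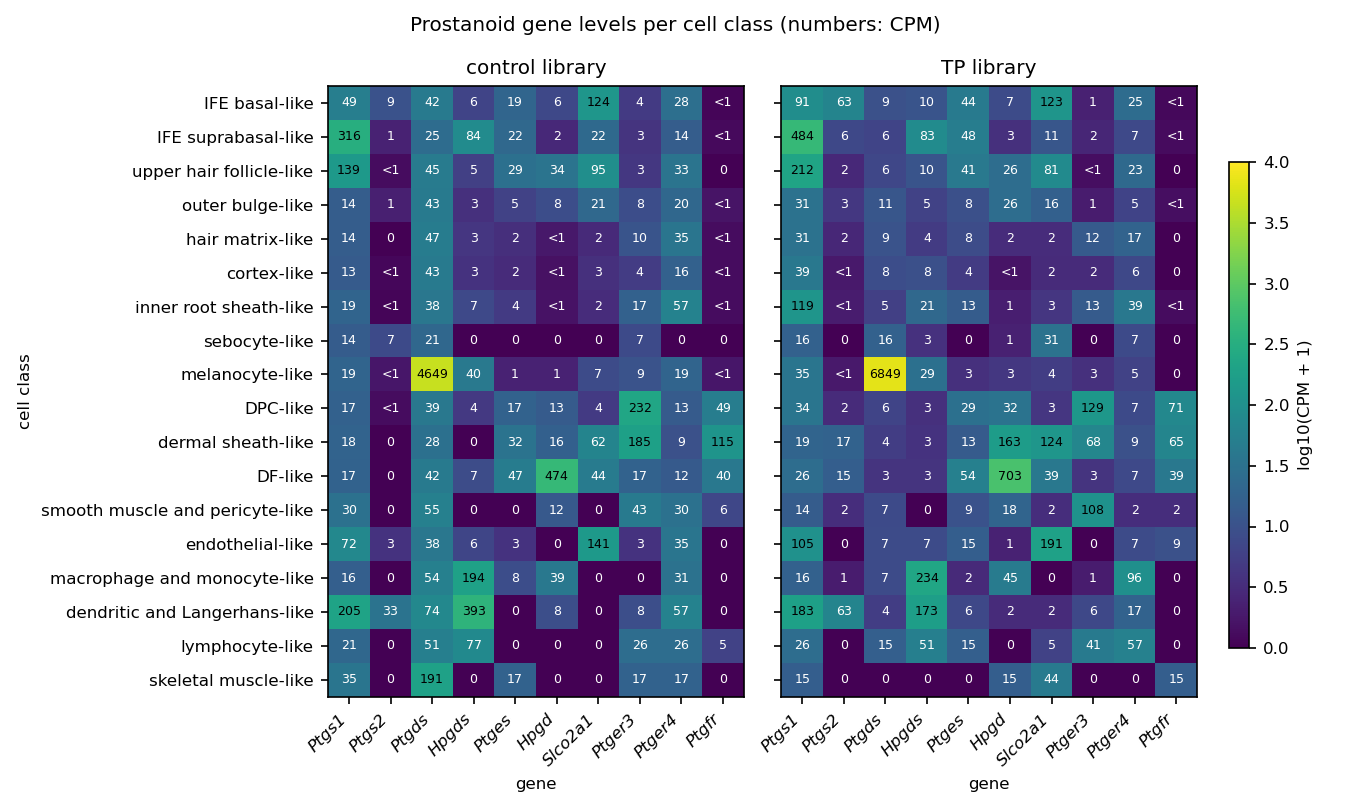
Level of each gene (columns) in each cell class (one line per class) of the control and the TP library; colour is log10(CPM + 1) and the printed numbers are CPM. Ptgds stands at 4649 and 6849 CPM in melanocyte-like cells, Hpgd at 474 and 703 CPM in DF-like cells, and Ptger3 at 232 and 129 CPM in DPC-like cells.

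Ptgs1, the cyclooxygenase that most tissues make at a steady rate (chr2:36216742-36258593, coordinates of RefSeq on GRCm38.p6), was mostly an epidermal transcript. IFE suprabasal-like cells held 74.1% of its UMIs in control and 81.6% in TP, at 316 and 484 CPM (1.53, 1.49 to 1.58). Thinned to 1000 UMIs per cell, 23.8% of control and 35.1% of TP suprabasal-like cells had a Ptgs1 UMI, and 57.8% and 86.7% before thinning. In IRS-like cells, a class with a low control level of Ptgs1 and median depths of 2083 and 5752 UMIs, the thinned share was 1.62% in control and 8.22% in TP, and free RNA was not measured. Among the suprabasal-like clusters that of the most differentiated cells was highest in both libraries. In the cluster led by Flg and Lor, genes of the cornified layer, Ptgs1 was at 490 CPM in control and 607 CPM in TP (1.24). In the suprabasal-like cluster led by Il34 and Ghr it was at 237 and 388 CPM (1.64), and in that led by Krt6b and Krt16 at 235 and 361 CPM (1.53). The control levels of the last pair of clusters did not differ beyond their intervals. Upper hair follicle-like cells were at 139 and 212 CPM, and IFE basal-like cells at 49.5 and 90.5 CPM (1.83, 1.63 to 2.06). The thinned share of the IFE basal-like cells in TP (8.45%, 7.49% to 9.49%) and that of IRS-like cells (6.69% to 9.96%) had overlapping intervals.

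A high level of Ptgs1 was also found in a small population that held few of its UMIs, the Langerhans-like cluster of the epidermis, marked by Cd207. Its 24 control cells held 25 Ptgs1 UMIs and its 19 TP cells 75, which is 567 and 1015 CPM (1.79, 1.13 to 2.94). The whole dendritic and Langerhans-like class was at 205 and 183 CPM (0.90, 0.57 to 1.46), and 24 of its 60 control cells but only 19 of its 107 TP cells were in that cluster. At resolution 2, an alternative in which clusters were not split into subclusters, the class of that name was broader and held other cells. Ptgs1 was at 62.9 and 131 CPM there (2.09). Endothelial-like cells were at 72.2 and 105 CPM (1.45, 0.91 to 2.39). The widest gap of all was in IRS-like cells, at 18.8 and 119 CPM (6.32, 5.58 to 7.19), and most of it was in the cluster led by Prr9 and Crym, at 42.8 and 188 CPM. Suprabasal markers moved with it: the summed level of Krt1, Krt10, Krtdap, Sbsn, Lor, Flg and Ivl in IRS-like cells came to 2697 CPM for control and 14917 CPM for TP. Per 1000 UMIs of those 7 markers, IRS-like cells had 6.97 and 7.97 Ptgs1 UMIs, against 10.0 and 9.30 in the suprabasal-like cells themselves. Cortex-like cells had 12.9 and 38.8 CPM, and 7.33 and 7.76 UMIs per 1000. Ptgs1 and the markers were also both higher in TP in hair matrix-like, outer bulge-like and DPC-like cells, with Ptgs1 ratios of 2.20, 2.21 and 2.07. In IFE basal-like cells the count per 1000 marker UMIs was above that of the suprabasal-like cells, at 21.1 and 19.2. The part of suprabasal RNA or cells in the Ptgs1 values of these classes was not tested.

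Ptgs2 encodes the inducible cyclooxygenase, which inflammation, wounding and growth factors switch on. Its gene lies at chr1:150100031-150108234. The stretch around its start is shown because Ptgs2 differed most between the libraries: 280 bases on the plus strand, chr1:150099781-150100060 of GRCm38.p6 from RefSeq, 250 before the start and the first 30 after it. Capitals mark matches to the motifs searched, here TTGCGCAA, a palindrome of the C/EBP type that begins 69 bases before the start, and ACGTCACGTG, where ACGTCA (the reverse strand of TGACGT, the core bound by CREB and ATF factors) begins 12 bases after the start and overlaps CACGTG, an E-box, from 16 bases after it.
Ptgs2 promoter: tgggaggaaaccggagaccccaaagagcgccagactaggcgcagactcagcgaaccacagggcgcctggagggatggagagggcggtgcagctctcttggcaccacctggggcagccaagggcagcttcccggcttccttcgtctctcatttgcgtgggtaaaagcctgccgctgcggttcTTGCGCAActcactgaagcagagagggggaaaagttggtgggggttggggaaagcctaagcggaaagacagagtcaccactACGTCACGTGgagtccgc
6 motifs were searched on both strands in 300 bases, from 250 before to 50 after the start, of the 10 members and of all 32851 promoters of the table: TGACGT was present in 7.51% of all promoters, TGACTCA in 5.20%, CACGTG in 7.15%, TATAAA in 13.6%, CATGTG in 14.2% and TTGCGCAA in 0.183%. Among the members TTGCGCAA, TGACGT and CACGTG were found in Ptgs2 alone. A match is a description of the letters and not a shown binding site.

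Most Ptgs2 transcripts came from the basal epidermis, which held 53.6% of the gene's UMIs in control and 60.2% in TP. IFE basal-like cells were at 9.16 CPM in control, from 67 UMIs in 2941 cells, and at 62.8 CPM in TP, from 921 UMIs in 3126 cells (6.86, 5.35 to 8.93). The thinned share of cells with a UMI was 0.871% and 4.45% (1.94% and 12.1% unthinned), against 0.0188% and 0.175% in IRS-like cells. All 3 large basal-like clusters had the same direction. The cluster led by Krt14 and Krt15 was at 8.40 and 78.4 CPM (9.33, 6.35 to 14.3), that led by Cdh13 and Sox6 at 11.99 and 59.7 CPM (4.98, 3.46 to 7.36), and that led by the cell division genes Anln and Ect2 at 4.86 and 31.2 CPM (6.41, 2.84 to 17.9). In control these 3 levels did not differ beyond their intervals. Suprabasal-like cells were far lower, at 1.44 and 6.39 CPM (4.43, 2.99 to 6.82), and within them the cluster led by Krt6b and Krt16, keratins of stressed and wounded epidermis, was highest at 2.23 and 12.6 CPM.

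Outside the epidermis Ptgs2 was found in small populations. Neutrophil-like cells had the highest level of any class, with 5 UMIs in 9 control cells (477 CPM) and 36 UMIs in 18 TP cells (1523 CPM), but were too few for a ratio. The myeloid cluster led by Cd74 and H2-Aa, of the dendritic and Langerhans-like class, had 4 UMIs in 36 control cells and 29 in 88 TP cells. With these UMIs the whole class was at 32.8 and 62.6 CPM (1.91, 0.67 to 7.48), against 9.16 and 62.8 CPM in IFE basal-like cells. At resolution 2, without subclusters, the class of that name was broader, at 13.5 and 110 CPM. These are not levels of dendritic and Langerhans-like cells alone. IFE basal-like cells were at 9.04 and 60.5 CPM there. In DF-like cells no Ptgs2 UMI was found in control, which with 106 cells allows up to 7.41 CPM (3 counts), and 62 in TP (14.6 CPM, interval 11.2 to 18.7). The TP level was 1.97-fold that bound, and the lower limit of the ratio was 1.55. Of these 62, 28 were in the 54 TP cells led by Pi16 and Ebf2, a cluster with only 4 control cells. Dermal sheath-like cells had 0 and 12 UMIs, below the 20 needed for a counted ratio, and DPC-like cells 4 and 19 (5.68, 1.89 to 23.0).

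Immediate-early genes, which cells switch on within minutes of a stimulus and also during tissue digestion, were higher in the same library. Of 8 such genes chosen after the ratio of Ptgs2 had been seen (Fos, Fosb, Jun, Junb, Egr1, Atf3, Ier2 and Dusp1), 7 were at least 2-fold higher over all kept cells, with ratios from 1.77 to 4.10 and a summed level of 2643 CPM in control and 7139 CPM in TP. In IFE basal-like cells 1 of 8 passed 2-fold, against 2.32% of all genes there, with ratios from 1.18 to 2.25 and a summed level of 7372 and 11887 CPM. In IFE suprabasal-like cells 0 of 8 did (2.89% of all genes), with sums of 5331 and 6668 CPM. In DPC-like and DF-like cells 8 and 7 of 8 did (4.79% and 6.12% of all genes), with sums of 1860 and 11495 CPM and of 2395 and 8319 CPM. Their part in the Ptgs2 values was not tested.

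**Figure D3:**
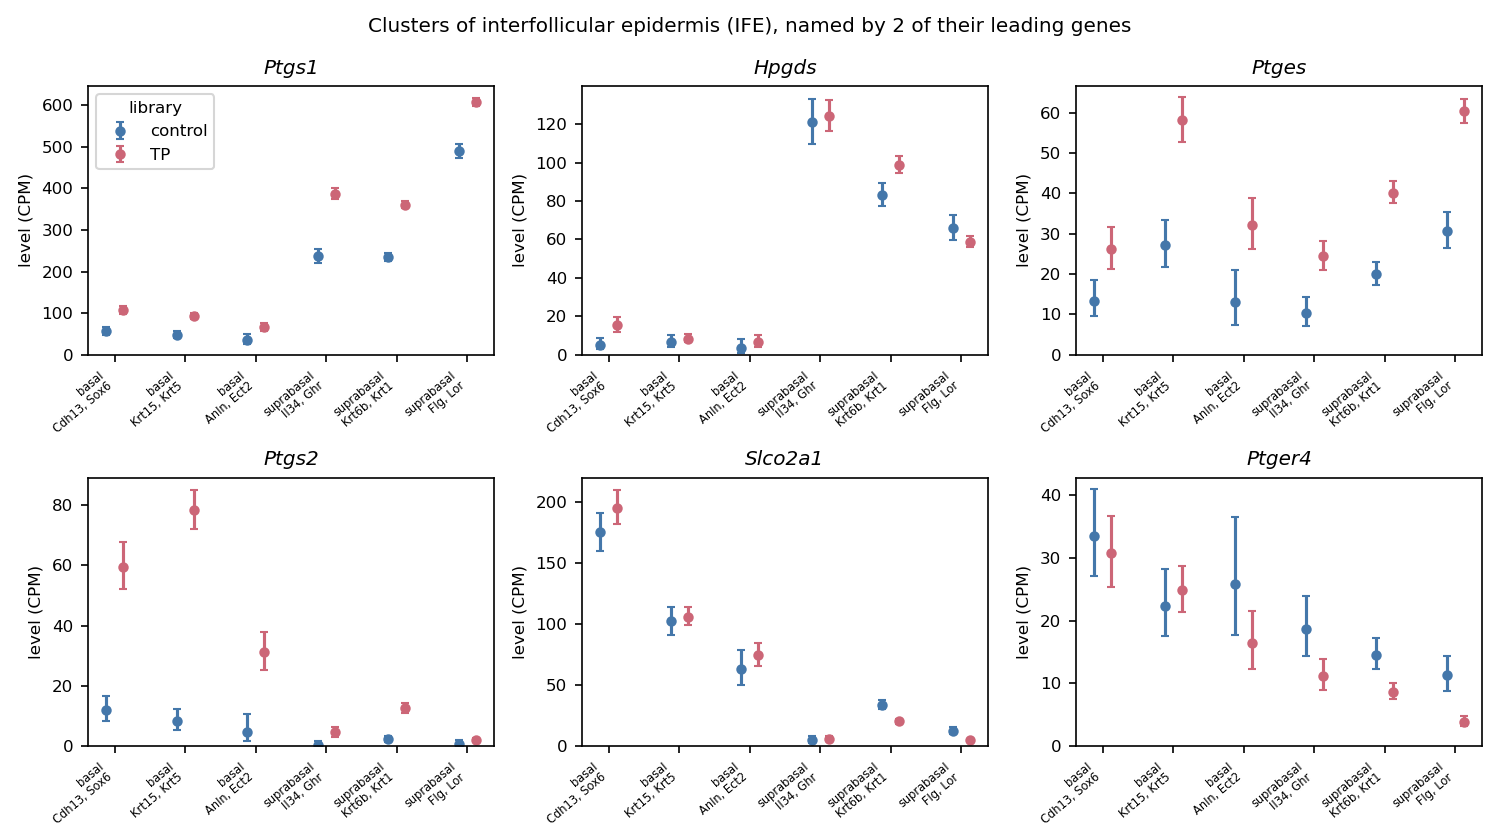
Levels (CPM, from 0) of Ptgs1, Hpgds, Ptges, Ptgs2, Slco2a1 and Ptger4 in the 3 basal-like and 3 suprabasal-like clusters of the interfollicular epidermis, each labelled by 2 of its leading genes (Krt15 and Krt5 for the Krt14 and Krt15 cluster, Krt6b and Krt1 for the Krt6b and Krt16 cluster); blue points are control, red points TP, and bars are 95% Poisson intervals of the count. Ptgs1 is highest in the Flg and Lor cluster (490 and 607 CPM), Ptgs2 in the basal clusters of the TP library (31.2 to 78.4 CPM), and Slco2a1 in the basal clusters of both.

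The step after cyclooxygenase sets which prostaglandin is made, and Ptgds and Hpgds both make prostaglandin D2, Ptgds as a secreted lipocalin-type enzyme and Hpgds as a cytosolic, haematopoietic type. Ptgds (chr2:25466709-25470110) was mostly a melanocyte transcript. Its promoter is shown because a single class held most of its transcripts: 280 bases on the minus strand, chr2:25469720-25469999 of GRCm38.p6 from RefSeq, with capitals at TGACTCA, the element bound by AP-1 factors, 35 bases before the start. The transcription start used for this window lies 361 bases inside the RefSeq gene record, which also covers longer predicted transcripts.
Ptgds promoter: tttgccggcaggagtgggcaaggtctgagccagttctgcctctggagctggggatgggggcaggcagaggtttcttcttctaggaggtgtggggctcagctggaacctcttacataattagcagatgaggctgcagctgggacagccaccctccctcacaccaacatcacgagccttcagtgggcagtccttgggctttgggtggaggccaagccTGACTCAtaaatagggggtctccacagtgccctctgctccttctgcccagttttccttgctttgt
Neither CATGTG, the motif named for MITF, the pigment cell factor, nor CACGTG was present in this window, which says only that those letters are absent from it. Among the other members CATGTG was found in Hpgds (80 bases before the start) and TATAAA in Slco2a1 (29 before) and Hpgd (4 after).

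Melanocyte-like cells, 484 in control and 172 in TP, held 59.2% of all Ptgds UMIs in control and 90.0% in TP. The control level was 4649 CPM and the TP level 6849 CPM (1.47, 1.43 to 1.52), so that in these cells Ptgds was higher in TP while over all cells it was lower (0.63). After thinning, 33.7% of control and 60.5% of TP melanocyte-like cells had a Ptgds UMI (49.0% and 66.3% unthinned). Every other class was far lower. The 9 other classes with at least 20 UMIs stood between 25.2 and 47.4 CPM in control and between 3.06 and 10.7 CPM in TP, with ratios from 0.07 to 0.25. IRS-like cells were at 38.1 and 4.76 CPM, with thinned shares of 4.93% and 0.787%, and IFE basal-like cells were at 41.7 and 8.80 CPM, with 5.08% and 1.17%.

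Pigment genes were also lower in TP in those classes. Per 1000 UMIs of Dct, Tyrp1, Pmel, Mlana and Tyr, melanocyte-like cells had 210 Ptgds UMIs in control and 233 in TP. IFE suprabasal-like cells had 256 (230 to 283) and 293 (257 to 334), both above the melanocyte-like values, and upper hair follicle-like cells 279 (228 to 339) and 224. IFE basal-like cells had 239 and 267, IRS-like cells 246 and 194, DPC-like cells 255 and 245, cortex-like cells 233 and 228, and hair matrix-like cells 220 and 208. DF-like cells of the TP library were far lower, with 67.0 (35.0 to 117). The same 5 pigment genes summed to 155 CPM in control IRS-like cells and to 24.5 CPM in those of TP. Within IRS-like cells, split by depth into 4 equal groups, from the shallowest to the deepest, the Ptgds level went from 75.4 to 21.1 CPM in control and from 9.60 to 3.43 CPM in TP, while the number of UMIs per 100 cells went up, from 9.30 to 12.8 in control and from 2.05 to 7.85 in TP. The part of free RNA in the Ptgds values outside the melanocyte-like class was not tested.

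**Figure D4:**
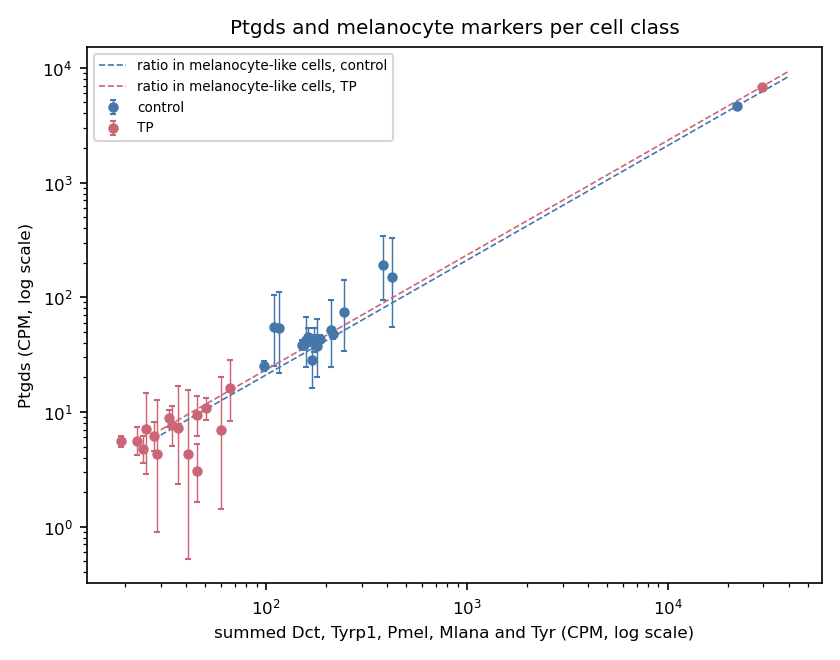
Ptgds level against the summed level of 5 pigment genes (both CPM on log axes), 1 point per class and library, blue for control and red for TP, with 95% Poisson intervals; dashed lines carry the ratio of the melanocyte-like cells (210 and 233 Ptgds UMIs per 1000 pigment UMIs) down to the other classes. Most points lie near the lines, with the control classes above and to the right of the TP classes. The melanocyte-like cells are the exception, with Ptgds at 4649 CPM in control and 6849 CPM in TP and the pigment genes also higher in TP.

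Hpgds (chr6:65117293-65144981) had an epidermal and an immune source. IFE suprabasal-like cells held 74.2% of its UMIs in control and 80.8% in TP, at 84.4 and 82.9 CPM (0.98, 0.93 to 1.04), with thinned shares of 7.81% and 8.47%. IRS-like cells had 0.527% and 1.66%. A difference between the libraries was therefore not seen in its main source, and by scaling with TMM the ratio there came to 1.24. Within the suprabasal cells the Flg and Lor cluster, highest for Ptgs1, was lowest for Hpgds: the cluster led by Il34 and Ghr was highest at 121 and 124 CPM, the Krt6b and Krt16 cluster had 83.2 and 98.9 CPM, and the Flg and Lor cluster 65.8 and 58.8 CPM. IFE basal-like cells were at 5.605 and 10.1 CPM.

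Per cell the highest Hpgds level was in Langerhans-like cells. The Cd207 cluster was at 1043 CPM in control (46 UMIs in 24 cells) and 1002 CPM in TP (74 UMIs in 19 cells), a ratio of 0.96 (0.66 to 1.42). The dendritic and Langerhans-like class as a whole was at 393 and 173 CPM (0.44, 0.30 to 0.64, and 0.515 by TMM). The rest of that class, the Cd74 and H2-Aa cluster, was low at 25.7 and 15.4 CPM, and with its clusters held at their control shares the ratio of the class was 0.95. It was 0.98 at resolution 2, where the class of that name was broader and held other cells. Macrophage and monocyte-like cells were at 194 and 234 CPM (1.20, 0.79 to 1.90). Melanocyte-like cells were at 40.4 and 29.4 CPM. The ratios past 2-fold, in IRS-like cells (6.72 and 21.5 CPM, 3.19), cortex-like cells (2.89 and 8.36 CPM, 2.90) and upper hair follicle-like cells (4.82 and 9.77 CPM, 2.03), were at low levels. Per 1000 suprabasal marker UMIs, IRS-like cells had 2.49 and 1.44 Hpgds UMIs and suprabasal-like cells 2.68 and 1.59.

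Ptges, which encodes the inducible microsomal prostaglandin E2 synthase (chr2:30889471-30931020), was spread over epidermis and dermis. DF-like cells had the highest level of the named classes in both libraries, at 46.9 and 53.6 CPM (1.14, 0.72 to 1.93). IFE suprabasal-like cells were at 21.6 and 47.8 CPM (2.21, 1.99 to 2.46) and IFE basal-like cells at 19.4 and 43.7 CPM (2.25, 1.88 to 2.72). All 6 of the large IFE clusters were higher in TP, by ratios from 1.95 to 2.48. The Flg and Lor cluster was at 30.6 and 60.4 CPM and the Krt14 and Krt15 cluster at 27.08 and 58.1 CPM. Thinned shares were 1.49% and 3.85% in suprabasal-like and 1.85% and 3.25% in basal-like cells, above 0.433% and 1.49% in IRS-like cells. Low levels elsewhere also differed, at 3.76 and 13.4 CPM in IRS-like cells (3.56) and 2.48 and 7.64 CPM in hair matrix-like cells (3.08). At resolution 2 the hair matrix-like levels were 2.78 and 4.29 CPM, no longer 2-fold apart. Per 1000 suprabasal marker UMIs, IRS-like cells had 1.39 and 0.897 Ptges UMIs and suprabasal-like cells 0.687 and 0.918. Upper hair follicle-like cells were at 29.3 and 40.5 CPM (1.38) and DPC-like cells at 17.1 and 29.4 CPM (1.72, 1.42 to 2.08). Dermal sheath-like cells went the other way, at 31.98 and 12.98 CPM (0.41, 0.16 to 0.95), from 18 and 9 UMIs. The ratio was 0.505 at resolution 2, where the class of that name was broader. Levels of DF-like, suprabasal-like, basal-like and upper follicle-like cells in TP lay close together, between 40.5 and 53.6 CPM.

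Hpgd encodes 15-hydroxyprostaglandin dehydrogenase, which makes the first inactivating step of prostaglandin breakdown (chr8:56294552-56321046). It was a fibroblast gene in this skin. DF-like cells were at 474 CPM in control, from 192 UMIs in 106 cells, and at 703 CPM in TP, from 2989 UMIs in 446 cells (1.48, 1.28 to 1.73). Thinned shares were 26.42% and 32.5%, against 0.0564% and 0.0874% in IRS-like cells. The class held 31.5% of all Hpgd UMIs in control and 71.8% in TP, and its share of all cells was 0.271% and 2.41%, which moved with the ratio of 5.35 over all kept cells. The fibroblast clusters differed from each other more than the libraries did. The cluster led by Col1a1 and carrying Tnmd and Cthrc1 was at 970 and 1293 CPM (1.33, 1.06 to 1.70), that led by Sfrp4 and Ogn at 491 and 704 CPM (1.43), and that led by Nova1 and C3 at 325 and 533 CPM (1.64). The cluster led by C7 and C3 was at 94.5 and 116 CPM, and that led by Igfbp2, with 5 control cells, went the other way at 666 and 428 CPM (0.64, 0.37 to 1.23). Hpgd was itself among the leading genes of the Tnmd cluster, although the 10 members were left out of the genes used for clustering.

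Beside the fibroblasts, Hpgd was higher in TP in other mesenchymal and follicle classes. In dermal sheath-like cells, which wrap the lower follicle, it was at 16.0 CPM in control (9 UMIs in 180 cells) and 163 CPM in TP (113 UMIs in 117 cells), a ratio of 10.2 (5.18 to 22.9). All 3 dermal sheath-like clusters had this direction, with 9 and 57 UMIs, 0 and 31, and 0 and 25. The 8 fibroblast markers were also higher there, at 7147 and 20859 CPM in sum, and per 1000 of their UMIs Hpgd was at 2.24 and 7.81. DPC-like cells were at 13.2 and 32.0 CPM (2.42, 1.97 to 2.97) and outer bulge-like cells, which hold follicle stem cells, at 7.66 and 25.8 CPM (3.36, 1.88 to 6.62). Upper hair follicle-like cells were at 34.1 and 26.28 CPM (0.77, 0.60 to 0.99).

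Slco2a1, the prostaglandin transporter that brings prostaglandins into cells for breakdown (chr9:103007061-103096002), marked basal epidermis and vessels. IFE basal-like cells held 46.8% and 48.5% of its UMIs, at 124 and 123 CPM (0.99, 0.91 to 1.07, and 1.13 by TMM), with thinned shares of 11.8% and 12.5%, against 0.263% and 0.350% in IRS-like cells. The order of the basal clusters was the same in both libraries: the Cdh13 and Sox6 cluster was at 175 and 195 CPM, the Krt14 and Krt15 cluster at 102 and 106 CPM, and the Anln and Ect2 cluster at 63.2 and 74.5 CPM. Slco2a1 was a leading gene of the first. Endothelial-like cells were at 141 and 191 CPM (1.35, 0.96 to 1.91), of which the Flt1 and Cd36 cluster had 194 and 307 CPM. Upper hair follicle-like cells were at 94.8 and 81.2 CPM, and at 48.7 and 43.1 CPM at resolution 2. Dermal sheath-like cells were at 62.2 and 124 CPM (1.99, 1.33 to 3.04), past 2-fold by TMM (2.23). At resolution 2 the class of that name was broader, mostly in control, at 34.6 and 106 CPM (3.07), so the cells compared were not the same.

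In suprabasal epidermis Slco2a1 was lower in TP, at 22.0 CPM in control and 10.8 CPM in TP (0.49, 0.43 to 0.56), and at 0.62 by TMM. The Krt6b and Krt16 cluster was at 34.0 and 20.4 CPM (0.60) and the Flg and Lor cluster at 12.5 and 4.79 CPM (0.38), whereas the Il34 and Ghr cluster was at 5.04 and 6.07 CPM. With these clusters at their control shares the ratio was 0.59. In sebocyte-like cells no UMI was found in 51 control cells, which allows up to 20.7 CPM, and 23 in 79 TP cells (31.2 CPM). The TP level was 1.5-fold that bound, with a lower limit of the ratio of 1.13. At resolution 2, without subclusters, the class named sebocyte-like was broader, at 168 and 149 CPM (0.885). It held many other cells and is no check on the sebocyte-like values given here.

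Among the receptors, Ptger3 and Ptger4 encode the prostaglandin E2 receptors EP3, which mostly lowers cyclic AMP, and EP4, which raises it. Ptger3 (chr3:157566821-157644758) was mostly found in the dermal papilla. DPC-like cells, the signalling centre at the base of the follicle, held 75.4% of its UMIs in control and 71.0% in TP, at 232 and 129 CPM (0.56, 0.52 to 0.60). Thinned shares were 20.7% and 11.5% (40.6% and 38.5% unthinned), against 0.429% in control and 0 of 560 cells in TP among cortex-like cells, which allows a share of up to 0.536% and whose median depths were 2345 and 4462 UMIs. Each of the 4 DPC-like clusters with most of these UMIs was lower in TP. The cluster led by Ndnf and Bmp6 was at 267 and 166 CPM (0.62, 0.56 to 0.69), that led by Fgf14 at 210 and 114 CPM (0.54, 0.49 to 0.60), that led by Edn3 at 252 and 208 CPM (0.83, 0.51 to 1.29) and that led by Dkk2 at 210 and 110 CPM (0.52, 0.24 to 1.33). The intervals of the last 2 reached past 1.

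Dermal sheath-like cells had Ptger3 at 185 and 67.8 CPM (0.37, 0.25 to 0.52), and smooth muscle and pericyte-like cells went the other way, at 42.6 and 108 CPM (2.55, 1.14 to 6.68), from 7 and 47 UMIs, with the same direction in both of their clusters. IRS-like cells had a low level in both libraries, at 16.8 and 13.3 CPM, well above cortex-like cells at 4.196 and 2.09 CPM. The remaining ratios under 0.5, in DF-like cells (7 and 13 UMIs, 0.18), IFE basal-like cells (28 and 19, 0.34), outer bulge-like cells (12 and 8, 0.14) and cortex-like cells (48 and 7, 0.50, and 0.522 by TMM), rested on few UMIs, and the part of free RNA in them was not tested.

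Ptger4 (chr15:5233399-5244187) was spread over the inner layers of the follicle and the epidermis. IRS-like cells held 932 of its UMIs in control and 436 in TP. IFE basal-like cells held 202 and 360, and IFE suprabasal-like cells 267 and 366. The highest level of a large cluster was in the unnamed cells led by Gask1b, Fzd5 and Creb5, at 113 and 82.8 CPM (0.73, 0.57 to 0.93), which alone held 15.9% of all its UMIs, and 3954 of whose cells were control and 224 TP. IRS-like cells were at 57.5 and 39.1 CPM (0.68, 0.61 to 0.76), with thinned shares of 5.81% and 4.72%. Within them the Krt71 and Krt25 cluster was at 94.9 and 78.6 CPM and the Krt73 cluster at 44.5 and 47.3 CPM. Hair matrix-like cells were at 34.8 and 17.5 CPM (0.50) and cortex-like cells at 16.2 and 6.27 CPM (0.39), with thinned shares of 1.64% and 0.536%. At resolution 2 the matrix-like class held far fewer control UMIs and was at 13.1 and 2.145 CPM (0.163), so the cells compared were not the same. IFE basal-like cells, at 27.6 and 24.6 CPM (0.89, 0.75 to 1.06, and 1.02 by TMM), had thinned shares of 3.23% and 2.24%. Suprabasal-like (1.57% and 0.787%), outer bulge-like (2.10% and 0.575%) and melanocyte-like cells (2.63% and 0.637%), with their thinned shares in parentheses, had ratios of 0.47 (0.594 by TMM), 0.26 and 0.28. The part of free RNA in these values was not tested.

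Of the classes with at least 20 UMIs, macrophage and monocyte-like cells alone had over 2-fold more Ptger4 in TP, at 31.1 CPM in control and 96.5 CPM in TP (3.10, 1.17 to 11.6). The control value rested on 4 UMIs in 61 cells and the TP value on 95 UMIs in 195 cells. Nearly all of the TP UMIs, 83, were in the cluster of macrophages led by Ccl8 and C1qa, which had 162 TP and 25 control cells and 2 control UMIs. EP4 is the receptor through which prostaglandin E2 is known to dampen macrophage cytokines.

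Ptgfr encodes the prostaglandin F2alpha receptor, the target of the lash-lengthening drugs (chr3:151798610-151837528), and was a mesenchymal transcript. DPC-like cells held 80.5% and 71.8% of its UMIs, at 48.6 and 71.5 CPM (1.47, 1.31 to 1.65), with thinned shares of 4.01% and 8.96%, against 0.0376% and 0 of 1144 cells in IRS-like cells. The ratio depended on the papilla clusters: without the Dkk2 cluster the ratio was 0.955, and with the clusters at their control shares 1.02. The Dkk2 cluster had 19 control and 291 TP cells and the highest level, at 90.2 CPM (3 UMIs) and 296 CPM (272 UMIs). In the cluster led by Ndnf and Bmp6 Ptgfr was at 30.6 and 46.0 CPM (1.5, 1.18 to 1.91), and in that led by Fgf14 it went the other way, at 70.9 and 44.3 CPM (0.62, 0.53 to 0.74). The Edn3 cluster was at 69.8 and 165 CPM, from 33 and 19 UMIs. Dermal sheath-like cells were at 115 and 64.9 CPM (0.56, 0.38 to 0.83) and DF-like cells at 39.5 and 38.8 CPM (0.98, 0.59 to 1.76).

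**Figure D5:**
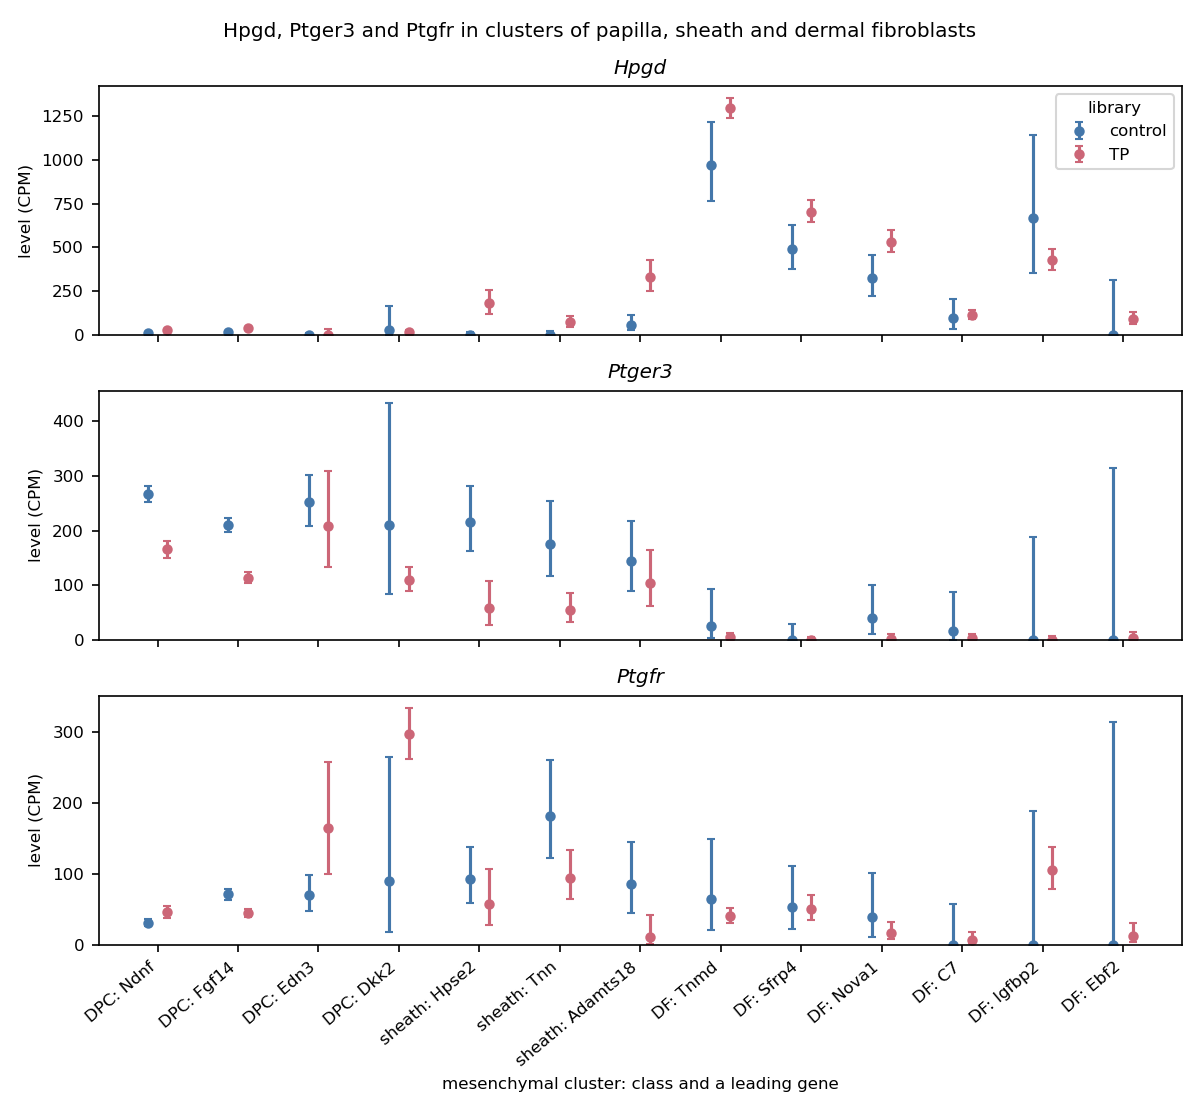
Levels (CPM, from 0) of Hpgd, Ptger3 and Ptgfr in mesenchymal clusters, each labelled by its class and a leading gene; blue points are control, red points TP, and bars are 95% Poisson intervals of the count. Hpgd peaks in the Tnmd cluster of DF-like cells (970 and 1293 CPM), Ptger3 lies lower in TP in the Ndnf (267 and 166 CPM) and Fgf14 (210 and 114 CPM) clusters, and Ptgfr is highest in the Dkk2 cluster of the TP library (296 CPM).

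The other genes of the pathway were read from a list of 32 symbols, of which 30 were in the files and 29 had enough UMIs. Over all kept cells 13 of the 29 passed 2-fold towards TP and 2 towards control, against 8.42% and 12.5% of all genes. Their median log2 ratio was 0.56, against -0.25 for all genes. By TMM they came to 13 and 0, to be read beside the TMM counts of all genes given above. With classes at their control shares 1 stayed higher, Pla2g2f (2.15), and 2 were lower, Ptger2 (0.456) and Tbxa2r (0.454). At TP class shares Pla2g2f was at 1.98 and Tbxa2r at 0.596, while Pla2g5 (3.16), Pla2g4e (2.23) and Ptger2 (0.336) were past 2-fold. Of 10 phospholipases, which release the fatty acid, 5 were higher. Pla2g2f, at 30.1 and 112 CPM, and Pla2g4f, at 46.9 and 119 CPM, were epidermal: IFE suprabasal-like cells held 80.1% and 81.8% of their TP UMIs. Pla2g4a, cytosolic phospholipase A2, was at 67.9 and 100 CPM (1.48). Of 10 further synthases and related reductases 6 were higher. Ptgis, prostacyclin synthase, was a DF-like transcript at 32.1 and 28.5 CPM in that class, and its 18 and 135 UMIs over all cells gave 5.88. Tbxas1, thromboxane synthase, was at 256 and 237 CPM in macrophage and monocyte-like cells, and 2.20-fold higher over all cells. Prxl2b, which reduces prostaglandin H2 to F2alpha, was at 179 and 260 CPM in IFE suprabasal-like cells.

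Of 4 breakdown and export genes 1 was higher, Ptgr1 (2.22), whose product acts after that of Hpgd. Of 5 counted receptors Ptgdr, one of the D2 receptors, was higher with 17 and 57 UMIs (2.63), and most of these lay in upper hair follicle-like cells (70.6% and 73.7%). Ptger2 (21 and 12 UMIs, 0.45) and Tbxa2r (148 and 92, 0.49) were lower. Ptgdr2, the other D2 receptor, had 1 UMI in control and 0 in TP.

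The genes most like each member were ranked by Pearson correlation of log2(CPM + 1) over 40 points, 20 classes in each of 2 libraries, among 12247 genes; the points share libraries, free RNA and depth, and the values are descriptions without a test. Ptgds lay closest to the pigment genes Dct (0.93), Pmel (0.88) and Mlana (0.88). Ptgfr lay closest to Nox4, Dnm3os and Olfml3 (each 0.91). Ptgs1 was nearest to Ly6d (0.76), Krtdap (0.75) and Dmkn (0.74), genes of the upper epidermis, and Ptgs2 to Il1b (0.83), Ifrd1 (0.81) and Ets2 (0.80). For Hpgd they were Creb3l1 (0.80), Twist2 (0.78) and Adgrd1 (0.77), and for Ptger3 Hey2 (0.79), Hpse2 and Tceal3 (each 0.75). Hpgds was nearest to Sh3bp2 (0.78), Ifitm6 and Hpse (each 0.77), Slco2a1 to Pir (0.79), Cdh13 and Cyp4b1 (each 0.74), and Ptger4 to Plekhg5 and Tmem104 (each 0.82) and Taf6 (0.80). Ptges had the weakest likeness, to P3h4 (0.72), Cbr3 (0.71) and Capn5 (0.69).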

How the data were processed

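The authors deposited, for each library, a matrix of UMI counts per gene and cell barcode, made with Cell Ranger 8.0.1 on mm10 from 10x GEM-X 3′ v4 libraries. From these counts, barcodes were kept if they had between 200 and 8000 genes and no more than 10% of UMIs from mitochondria, and doublets were removed with a rewritten DoubletFinder procedure (7.5% expected). Seurat 5.3.0 integrated the libraries (RPCA, 2000 genes, 30 components) and clustered the cells at resolution 1. Clusters were named from fixed marker lists, with thresholds for names set after the clusters were seen. UMIs were summed per class and library and divided by all UMIs of those cells. Ratios were counted where a gene had at least 20 UMIs over both libraries and the class at least 30 cells in each, and 3 counts served as the floor where a library had 0. Shares of cells were taken after thinning to 1000 UMIs. Intervals (Poisson, Clopper-Pearson, and conditional binomial for ratios) were exact. The members and gene lists were chosen with earlier results of these data known. The genes named were the members, the pathway list by its groups and, for each member, the 3 genes with at least 500 UMIs, gene models left out, of highest correlation; clusters were picked for description after their values were seen. Alternatives were another scaling (TMM, edgeR 4.0.16), count minimum, resolution, mitochondrial limit, class shares and thinning. Promoters and positions are of RefSeq, GRCm38.p6.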

Additional observations from a re-analysis of the deposited data

Results flagged for a closer look

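Several genes had a ratio past 2-fold in one direction in some classes and the opposite or no such ratio elsewhere. These differences between classes were not tested, since each group is 1 library. For Ptges the ratios were 2.25 in IFE basal-like, 2.21 in IFE suprabasal-like, 3.08 in hair matrix-like and 3.56 in IRS-like cells, against 0.406 in dermal sheath-like cells. At resolution 2 the dermal sheath-like class was broader, and its ratio of 0.505 was not past 2-fold. At that resolution hair matrix-like cells were at 2.78 and 4.29 CPM, from too few UMIs for a counted ratio. For Hpgds they were 2.90 in cortex-like, 3.19 in IRS-like and 2.03 in upper hair follicle-like cells, against 0.439 in dendritic and Langerhans-like cells, which came to 0.515 by TMM. At resolution 2 the class of that name was broader, with a ratio of 0.982. Per 1000 suprabasal marker UMIs, IRS-like cells had 2.49 Hpgds UMIs in control and 1.44 in TP. For Ptger3 they were 0.177 in DF-like, 0.339 in IFE basal-like, 0.367 in dermal sheath-like and 0.137 in outer bulge-like cells, against 2.55 in smooth muscle and pericyte-like cells. For Ptger4 they were 0.471 in IFE suprabasal-like (0.594 by TMM, not past 2-fold), 0.388 in cortex-like, 0.277 in melanocyte-like and 0.262 in outer bulge-like cells, against 3.10 in macrophage and monocyte-like cells.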

How the results depend on the processing

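With 1 library per group no replicate could be left out. No paired analysis was possible because each group had 1 library. Over all kept cells 5 members were past 2-fold higher and 2 lower, 13 and 2 of the pathway list, and 1649 and 2456 of all genes; within classes 22 and 21 pairs were. By TMM 1 member (Ptger3, with Ptger4 at 0.502), 0 pathway genes and 1490 genes were lower, 5, 13 and 2285 were higher, and the pairs came to 29 and 17. With a minimum of 1 UMI 3818 genes and 39 pairs were lower. With a minimum of 100 UMIs 14 pairs were higher and 13 lower, 1 pathway gene was lower and 1499 genes were lower. The numbers of genes and pairs reaching these minima are not given, so these counts carry no shares. With doublets kept 1 pathway gene was lower. With control class shares 2 members, 1 pathway gene and 838 genes were higher, and 1 member and 1151 genes lower. By the mean of ln(CP10k + 1) per cell 1 member was lower. Of all results checked under that measure, 37 were marked as moved and 68 as the same, the most moved of any setting. With a mitochondrial limit of 5% 12 moved and 89 stayed, and by TMM 21 and 86. Resolution 2 moved 14 and left 77, and thinning to 500 UMIs moved 17 and left 3. Alternatives chosen after seeing the data were the control cluster shares, the ratio without the Dkk2 cluster and the TP class shares. With TP class shares 1 member, 2 pathway genes and 725 genes were higher, and 0 members, 1 pathway gene and 1234 genes lower. At resolution 2 the highest class was the same for 16 of 20 combinations of a member and a library. At that resolution Slco2a1 in sebocyte-like cells came to 0.885 and Ptgs1 in dendritic and Langerhans-like cells to 2.09. Both classes were broader there, since clusters were not split into subclusters, so these ratios are of other mixes of cells.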
